A study of Artemia franciscana with 14 samples.

Results

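The genes described here are 26 of the 19421 genes counted in the brine shrimp *Artemia franciscana* whose RNA was scarce or unseen in young embryos, 1–2 days after fertilization (days post-fertilization, dpf), and present in every embryo at 4 dpf. They were chosen by level alone: at most 5 CPM (the reads of a gene divided by all counted reads of its library, times 1000000) in each of 6 embryos at 1–2 dpf, and at least 10 CPM in each of 6 embryos at 4 dpf. Genes numbered jg8898 to jg9983, the stretch of numbers taken here as the Z chromosome, were left out, and 1 gene in that stretch (jg9140) met both limits. Because the 2 stages chose the genes, their rise between the stages is given as a description, without a test.

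RNA of single whole embryos was sequenced from wild-type animals, with 3 females and 3 males at 1–2 dpf and 3 females and 3 males at 4 dpf. At the early stage, female replicate 3 and male replicate 1 were of 1 dpf, and female replicates 9 and 12 and male replicates 2 and 3 were of 2 dpf. Beside them stood 1 wild-type adult female and 1 wild-type adult male, without replicates and without a stated age, whose germline had been taken out by dissection before RNA was extracted. Sex was taken as called by the authors from SNPs in sex-chromosome transcripts, and the labels do not say which embryos shared a mother. P-values therefore measure the spread between these embryos.

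In animals, the first divisions of the embryo run on RNA that the mother laid down in the egg, and transcription of the embryo's own genome takes over later. After gastrulation, cells of different layers begin to transcribe genes for tissues and organs, so that a gene without RNA in the early embryo can become measurable within days. In animals at large, some such genes serve the embryo or larva alone, whereas others belong to tissues that last into the adult. The counts carry gene numbers without symbols, and none of the 26 genes could be matched to a RefSeq gene, so that no role is given to any of them, and markers of cell types or of tissues could not be checked. In these bulk libraries, fewer cells of a type and less RNA per cell cannot be told apart.

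Embryo libraries held between 2669131 and 7463397 counts, the adult female library 3342959 and the adult male library 1840926. A floor of 3 reads corresponded to between 0.402 and 1.12 CPM in the embryos, 0.897 CPM in the adult female and 1.63 CPM in the adult male. Reads were counted without collapsing PCR copies, so that intervals and floors cover counting error only. Female replicate 12 at 1–2 dpf stood apart, with reads on 6414 genes against 10045 to 10842 in the other 5 embryos of its stage. It had no read on any of the 26 genes, and without it 29 genes met the limits, the 26 among them.

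At 1–2 dpf, 719 reads fell on the 26 genes over all 6 embryos, against 68779 reads at 4 dpf. Of the 156 values of a gene in an early embryo, 71 were without a read and 63 were over the floor of 3 reads, with at most 21 reads in any of them. The lowest value at 4 dpf rested on 36 reads. The number of genes with a read was 16 and 19 in the 2 embryos of 1 dpf, and 0, 15, 17 and 18 in the 4 embryos of 2 dpf. At least 1 read was thus seen early in nearly all of the genes: 13 of the 26 had a read in 4 or 5 early embryos, 12 in 1 to 3, and 1, jg17358, in none. These counts include values at or under the floor: 85 values had a read, and 63 of them were over it. The early reads of jg2042 came to 1 in all. For the 16 genes whose early mean was above the highest floor of an early library, 0.835 CPM, the ratio of the stage means ran from 14.8 (jg914) to 330.1 (jg18868), and no ratio is given for 9 of the others.

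jg18868 had the highest level at 4 dpf, with 315, 629.6 and 688 CPM in females and 79.3, 484 and 722 CPM in males (mean 486 ± 249.7 CPM, SD, n = 6). At 1–2 dpf, it was without a read in 3 embryos and at 0.806, 3.9 and 4.13 CPM in the others, so that the ratio of the stage means was 330.1. Male replicate 2 lay far below the other 5 embryos of 4 dpf in this gene. jg17358 followed with 227, 228 and 357 CPM in females and 165, 176 and 365 CPM in males (mean 253 ± 87.6 CPM, SD, n = 6). As it had no read in any early embryo, its level at 4 dpf was at least 303-fold higher than the highest floor of a library at 1–2 dpf. These 2 genes marked the upper end of the group, and neither had a read in an adult.

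**Figure D1:**
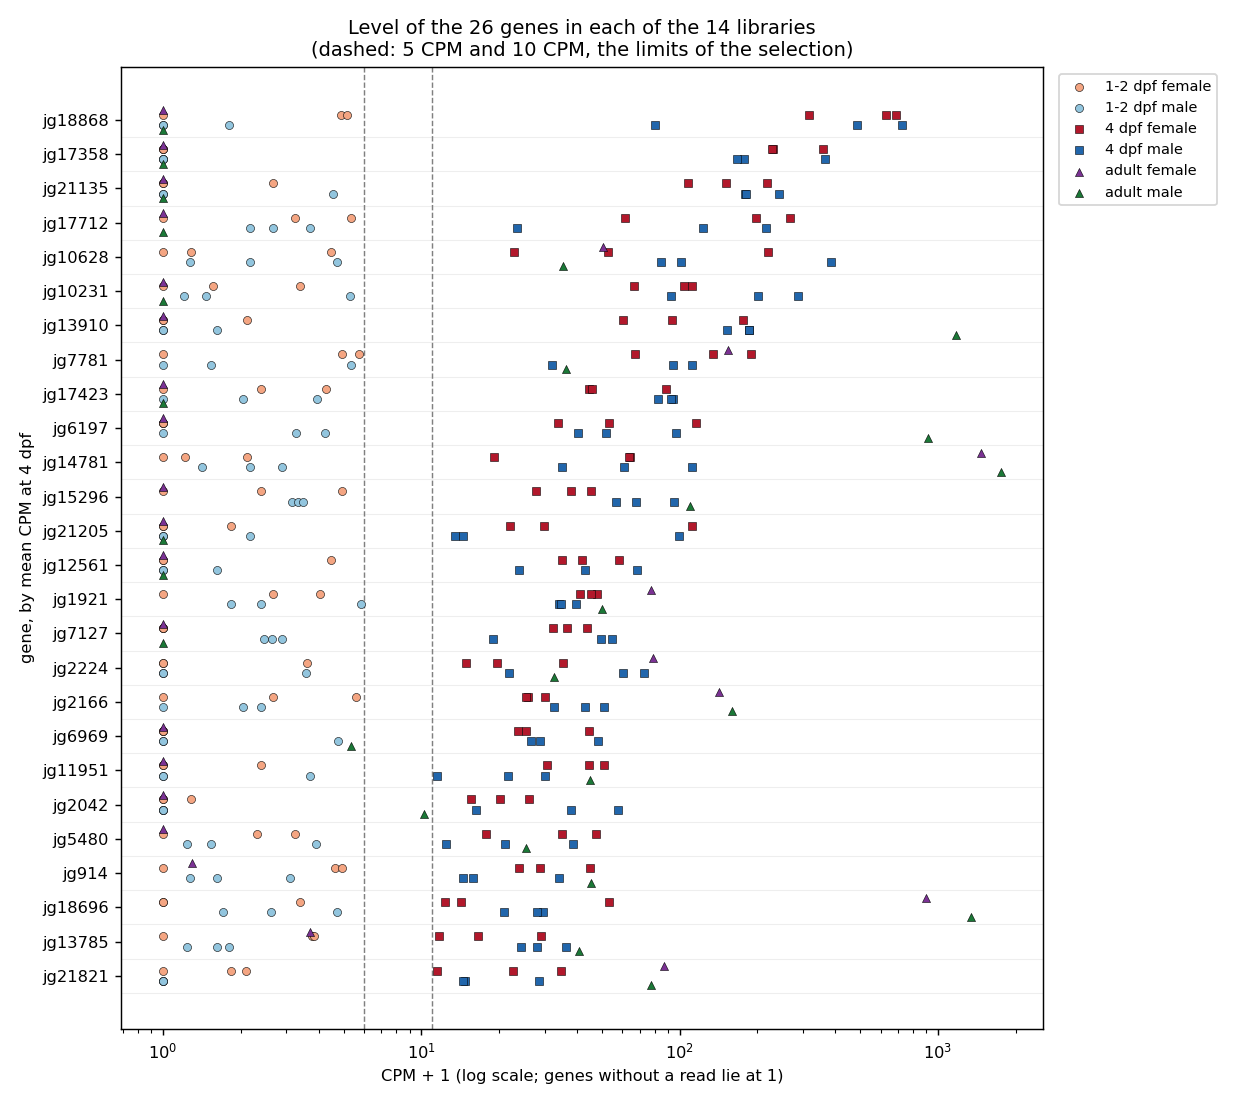
Level of each of the 26 genes (rows, ordered by mean CPM at 4 dpf) in each of the 14 libraries, as CPM + 1 on a log scale, with circles for 1–2 dpf, squares for 4 dpf and triangles for adults; the dashed lines mark the limits of 5 and 10 CPM. The embryos of 4 dpf lie right of 10 CPM in every row because they were chosen so, whereas adult levels range from no read to 1747 CPM.

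Mean levels of the 26 genes at 4 dpf ranged from 20.1 CPM (jg21821) to 486 CPM (jg18868), with a median of 45.8 CPM. The median was 63.1 CPM over the 3868 genes that had at least 10 CPM in each embryo of 4 dpf outside the left-out stretch, the 26 among them; these 3868 genes serve below as the background. Of the 26 genes, 8 had a mean of 100 CPM or more, 4 lay between 50 and 100 CPM and 14 lay below 50 CPM. jg21135 had 107, 150.5 and 217 CPM in females and 178, 179 and 240.4 CPM in males (mean 179 ± 47.4 CPM, SD, n = 6). The other genes of this top group were jg17712 (147 ± 95 CPM), jg10628 (143 ± 136 CPM), jg10231 (143 ± 84 CPM), jg13910 (141 ± 53 CPM) and jg7781 (104 ± 54.1 CPM), each as mean ± SD of 6 embryos. The next were jg17423 (73.7 ± 23.3 CPM) and jg6197 (64.5 ± 33.2 CPM), with n = 6 as well. A few genes thus carried most of the reads: jg18868 alone held 21.1% of the summed level, and the 10 genes with the highest means held 75.5%.

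Together, the 26 genes took 0.230 ± 0.066% of the counts of an embryo at 4 dpf (SD, n = 6), from 0.151% in female replicate 10 to 0.307% in male replicate 5. The share was 0.223 ± 0.078% in the 3 females and 0.237 ± 0.0685% in the 3 males, a difference within the spread of either sex. In the 5 embryos of 1–2 dpf with a read on them, the share ranged from 0.00215% to 0.00509%. Adults had 0.296% (female) and 0.584% (male). Of 9880 reads on the 26 genes in the adult female, jg14781 held 4913 and jg18696 held 3005. Of 10750 such reads in the adult male, these 2 genes held 3217 and 2478. A further 2164 and 1675 there fell on jg13910 and jg6197, which had no read in the adult female.

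The limits cut a small set out of a larger field. Outside the left-out stretch, 10058 genes had at most 5 CPM in every early embryo, and 9568 of them reached 10 CPM in no embryo of 4 dpf. A further 464 reached 10 CPM in some of the 4 dpf embryos but not in all 6, so that genes present in part of the embryos outnumbered the 26. Read from the other side, 3073 of the 3868 background genes were above 5 CPM in every early embryo. The 2 genes nearest the early limit from inside were jg1921 (4.834 CPM in its highest early embryo) and jg7781 (4.733 CPM), and the nearest outside were jg6267 and jg11916 (5.003 CPM each). At the late limit, jg11951 (10.451 CPM in its lowest embryo) and jg21821 (10.487 CPM) lay inside, and jg13314 (9.959 CPM) and jg14591 (9.781 CPM) outside. Without the 2 embryos of 1 dpf, 41 genes met the limits, the 26 among them.

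**Figure D2:**
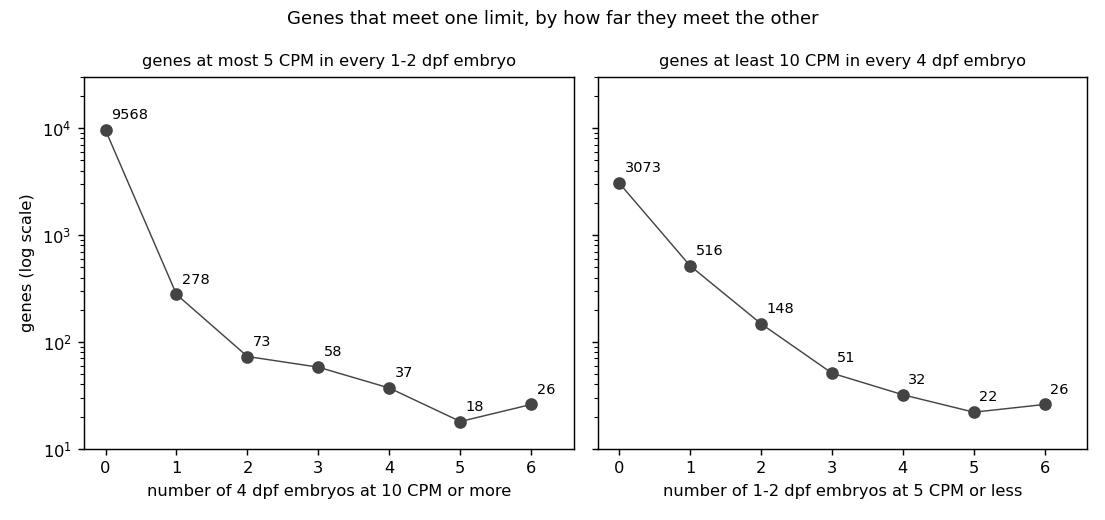
Number of genes (log scale) by the number of embryos that met a limit: genes at 5 CPM or less in every embryo of 1–2 dpf by how many embryos of 4 dpf reached 10 CPM, and genes at 10 CPM or more in every embryo of 4 dpf by how many embryos of 1–2 dpf were at 5 CPM or less. Both counts end at the 26 genes for 6 embryos, from 9568 and 3073 genes for 0 embryos.

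The level of the 26 genes varied between embryos of 4 dpf. The coefficient of variation (SD divided by the mean, over 6 embryos) had a median of 46.4% over the 26 genes and of 28.6% over the background. The highest embryo exceeded the lowest by a median of 3.52 times in the 26 genes, against 2.18 times in the background. The background was not matched for level here: its means reached 23719 CPM, against 486 CPM in the 26 genes. jg10628 varied most, with 21.8, 51.6 and 219 CPM in females and 83.7, 100 and 384 CPM in males (coefficient of variation 94.7%). jg21205 was close to it at 94.5%: 2 embryos, female replicate 7 (111 CPM) and male replicate 5 (98.6 CPM), stood above the others, which had between 12.5 and 28.7 CPM. At the other end, jg1921 stayed between 33.1 and 46.9 CPM (14.1%), and jg21135 was the next at 26.5%.

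The embryos did not rank alike in all genes. Male replicate 2, the most deeply sequenced embryo of 4 dpf, was the lowest embryo in 8 genes (30.8%, background 21.8%; jg18868, jg17712, jg7781, jg21205, jg1921, jg7127, jg11951 and jg5480) and the highest in 6 others (23.1%, background 15.6%; jg21135, jg10231, jg17423, jg15296, jg6969 and jg13785). Female replicate 7 was the highest embryo in 8 genes, which is 30.8% of the 26 against 17.1% of the background. Female replicate 10 was the highest in none and the lowest in 6 genes (23.1%, background 15.5%), and male replicate 5 was the lowest in none (background 10.6%). jg17712 shows the first pattern, with 22.4 CPM in male replicate 2 and between 60.6 and 267 CPM in the other 5 embryos. jg10231 shows the second, with 287 CPM in male replicate 2 and between 65.7 and 199.7 CPM in the others. In every gene some embryo is the highest and some embryo the lowest, and whether these shares differ from the background was not tested.

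Females and males were compared at 4 dpf because the choice of the genes did not use sex. None of the 26 genes differed at an adjusted p-value under 0.05 in the quasi-likelihood F test of edgeR, fitted over 8979 genes (0.0% of which were called). At an unadjusted p-value under 0.05, 2 of the 26 genes passed, against 3.53% of all genes tested, and the adjusted p-value was 0.999 for each of the 26 genes. DESeq2 also called none of the 26, with a lowest adjusted p-value of 0.752, while it called 30 of 13604 genes. At an unadjusted p-value under 0.05 in DESeq2, 3 of the 26 passed, against 4.3% of all genes tested. The estimated female level was above the male level in 13 of the 26 genes (49.1% of all genes tested), and the median log2 difference, female minus male, was 0.004. Sizes differed from gene to gene, with a median absolute log2 difference of 0.57 (0.39 over all genes) and a median standard error of 0.49, so that the sexes could not be told apart in these genes with 3 embryos each.

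The smallest p-value belonged to jg15296, with 26.7, 37.1 and 44.3 CPM in females and 55.8, 66.7 and 94.2 CPM in males. Every male was above every female, with a log2 difference of -0.96 (standard error 0.38, 95% confidence interval -1.82 to -0.10, unadjusted p = 0.0326, adjusted p = 0.999 in edgeR). jg11951 lay the other way, with 29.5, 43.4 and 49.8 CPM in females and 10.5, 20.6 and 29.2 CPM in males. Its log2 difference was 1.11 (standard error 0.46, 95% confidence interval 0.06 to 2.16, unadjusted p = 0.0399, adjusted p = 0.999 in edgeR), and the nearest female and male were 0.3 CPM apart. The sexes did not overlap in 2 further genes, jg1921 (40.1 to 46.9 CPM in females, 33.1 to 38.6 CPM in males) and jg2166 (24.4 to 29.1 CPM in females, 31.5 to 49.8 CPM in males). Such a gap was seen in 4 of the 26 genes (15.4%) and in 10.9% of all genes tested, a share near that of the background.

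The next genes by p-value had overlapping sexes. Among genes with a higher male estimate, these were jg10231 (log2 difference -1.01, unadjusted p = 0.0544 in edgeR) and jg2224 (-1.13, unadjusted p = 0.0821). Among genes with a higher female estimate, they were jg7781 (0.79, unadjusted p = 0.14 in edgeR) and jg914 (0.68, unadjusted p = 0.209). For the most abundant gene, jg18868, the 95% confidence interval of the log2 difference ran from -1 to 1.87, and for jg17358 from -0.51 to 1.03. A female level 2-fold above the male level is inside both intervals.

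**Figure D3:**
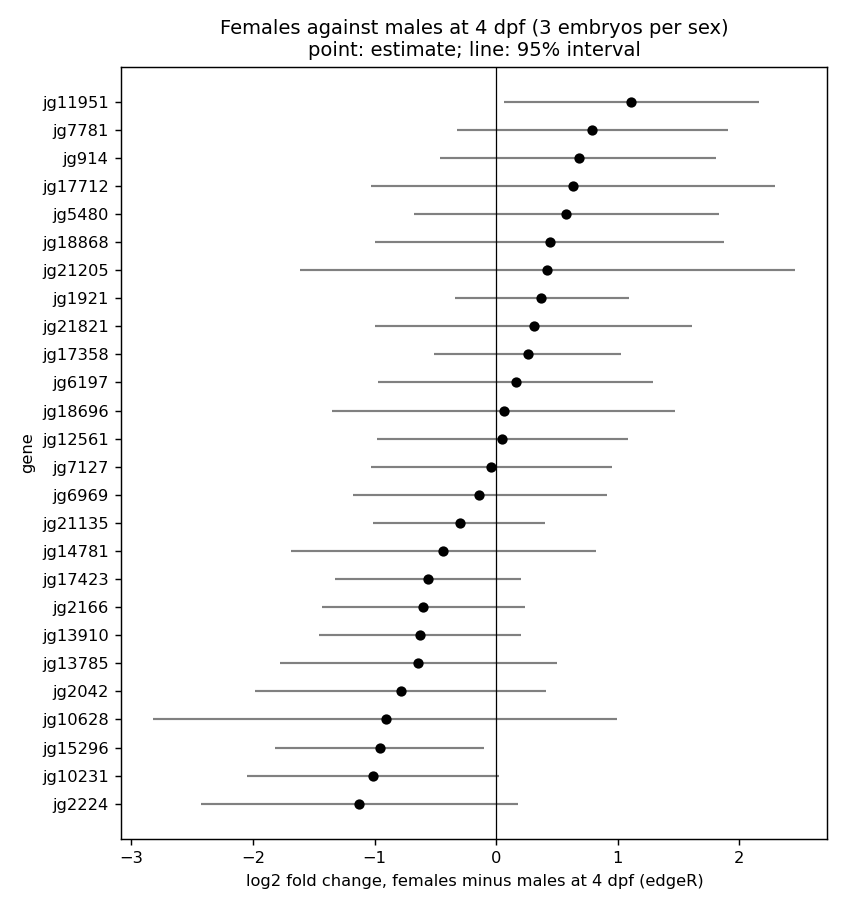
Log2 difference between females and males at 4 dpf for each of the 26 genes, with the 95% confidence interval from edgeR (3 embryos per sex). Of the 26 intervals, those of jg15296 (-1.82 to -0.10) and jg11951 (0.06 to 2.16) leave out 0 before adjustment, and none of the genes passed the adjusted test.

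In adults the group fell into 3 classes: 9 genes had more than 3 reads in both adults, 8 in the adult male but not in the adult female, and 9 in neither, while none had more than 3 reads in the adult female alone. In the background, these shares were 67.8% for both adults, 11.1% for the male only, 10.5% for neither and 10.6% for the female only. The 26 genes thus held 34.6%, 30.8%, 34.6% and 0% in these classes. The adult male level was the higher in 12 of the 26 genes (background 55.1%). These 2 shares are not directly comparable, because genes without a read in either adult count as not higher. Such ties made up 34.6% of the 26 genes and 8.76% of the background. At 10 CPM or more, 8 of the 26 genes were found in the adult female (background 66.7%), 15 in the adult male (71.3%) and 8 in both (54.6%). With 1 adult of each sex there is no replicate and no test, and the difference between the adults cannot be told apart from a difference between 2 animals. Since the adults lacked their germline and the embryos were whole, a gene without reads in an adult library was not measured in the adult germline. Both adults had reads on fewer genes than the embryos of 4 dpf, 7399 in the female and 7064 in the male against 9481 to 11352.

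The 9 genes found in neither adult had no read at all in either library (background for this, 8.76%). They were jg18868, jg17358, jg21135, jg17712, jg10231, jg17423, jg21205, jg12561 and jg7127, and they held the higher levels at 4 dpf, with a median of 143 CPM against 36.5 CPM for the genes in both adults and 31.2 CPM for those in the male only. Set against its mean at 4 dpf, jg18868 was at least 542-fold lower in the adult female and at least 298-fold lower in the adult male, with the floor of 3 reads in each. For jg17358 these bounds were at least 282-fold and at least 155-fold lower, and for jg21135 at least 199-fold and at least 109.8-fold lower. Such bounds, here and below, cover counting error only. Loss of RNA before sequencing was not measured, so a gene without a read may still have been present in the adult. Among genes with a mean between 100 and 500 CPM at 4 dpf, 5 of the 8 members of the group were in neither adult, whereas 4.71% of the 1041 background genes of that level were. The contrast was smaller at lower levels. Between 50 and 100 CPM, 1 of 4 members was in neither adult, against 7.36% of 1005 background genes. Between 20 and 50 CPM, 3 of 14 members were, against 14.8% of 1416 background genes.

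The 8 genes found in the adult male only reached from 4.35 CPM to 1175 CPM there. jg13910 had 1175 CPM in the adult male (exact 95% binomial interval 1127 to 1226 CPM), which was 8.32 times its mean of 141 CPM at 4 dpf, and no read in the adult female. The adult male level was at least 1309.9-fold higher than the floor of the adult female. At 4 dpf, the same gene had 59.5, 92.4 and 175 CPM in females and 152, 185 and 185 CPM in males, with overlapping sexes (log2 difference -0.63, unadjusted p = 0.118 in edgeR). jg6197 was similar, with 909.9 CPM in the adult male (867 to 954 CPM), 14.1 times its mean at 4 dpf and at least 1014-fold higher than the floor of the adult female. Its embryos of 4 dpf had 32.8, 52.4 and 115 CPM in females and 39.5, 50.8 and 95.9 CPM in males, so that no male excess of that kind was seen there.

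The other 6 genes of this class were far lower in the adult male. jg15296, which had the smallest p-value between the sexes at 4 dpf, had 109 CPM in the adult male and no read in the adult female. jg914 had 44.5 CPM in the adult male and jg11951 44 CPM, although jg11951 was higher in each female embryo than in each male embryo. jg5480 had 24.4 CPM, jg2042 9.23 CPM and jg6969 4.35 CPM, and the last of these rested on 8 reads. In the adult female, jg914 had 1 read and the other 5 had none.

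Of the 9 genes found in both adults, jg14781 was the most abundant, with 1469.7 CPM in the adult female (exact 95% binomial interval 1429 to 1511 CPM) and 1747 CPM in the adult male (1688 to 1809 CPM). At 4 dpf it had 18.1, 62.7 and 63.1 CPM in females and 33.9, 59.9 and 110.4 CPM in males, so that the adults were 25.3 and 30.1 times above the mean of 58 ± 31.5 CPM (SD, n = 6). jg18696 had 899 CPM in the adult female and 1346 CPM in the adult male, 35.5 and 53.2 times its mean of 25.3 ± 14.9 CPM at 4 dpf (SD, n = 6). Both genes were thus far more abundant in each adult than in any embryo of 4 dpf. jg2166 followed with 141 and 159 CPM in the adult female and male, 4.22 and 4.73 times its mean at 4 dpf, and these 3 genes (11.5%, background 1.32%) exceeded 4 times that mean in both adults. Both adults were above every embryo of 4 dpf in 5 genes, namely these 3 with jg1921 and jg21821 (19.2%, background 4.24%), and below every embryo in 11 genes (42.3%, background 54.8%).

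The remaining 6 genes of the class were less abundant in both adults than jg14781, jg18696 and jg2166, except that jg7781 exceeded jg2166 in the female, and some lay above and others below their means at 4 dpf. jg1921, the gene with the least spread between embryos, had 76.6 CPM in the adult female and 48.9 CPM in the adult male, and jg21821 had 86.2 and 76.6 CPM, 4.29 and 3.81 times its mean at 4 dpf. jg7781 had 153 CPM in the adult female and 35.3 CPM in the adult male, a ratio of 4.32. jg2224 had 77.8 and 31.5 CPM, and jg10628 had 49.4 and 34.2 CPM, each higher in the female. jg13785 was the reverse, with 2.69 CPM in the adult female, from 9 reads, and 39.7 CPM in the adult male, a ratio of 14.7, around a mean of 23.3 CPM at 4 dpf.

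**Figure D4:**
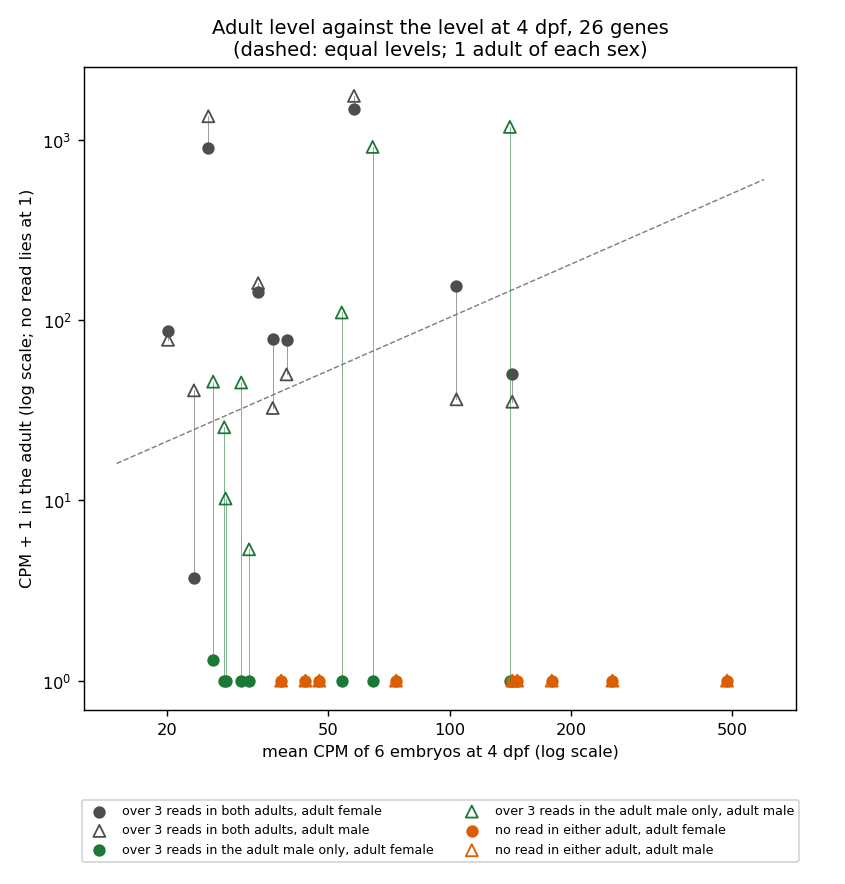
Adult female level (circles) and adult male level (triangles), as CPM + 1 on a log scale, against the mean CPM of 6 embryos at 4 dpf on a log scale, for the 26 genes coloured by adult class; the dashed line marks equal levels. The 9 genes without a read in either adult lie on the bottom line and include the 4 genes with the highest means at 4 dpf, while jg14781, jg18696, jg13910 and jg6197 lie far above the dashed line in at least 1 adult.

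Gene numbers stood in for position, since the counts carry no coordinates, and whether the numbers follow the genome throughout was not checked. No gene of the group lay next to another by number, and none lay within 20 genes of another. The closest were jg2166 and jg2224, 58 numbers apart, and the median step between genes of the group was 616 numbers, from jg914 to jg21821. When the numbers were divided into windows of 1000, 15 of 23 windows held a gene of the group and none held more than 3. The 26 genes were therefore spread over the numbering and formed no run by number. As they were 26 of 18379 numbered genes outside the left-out stretch, adjacent pairs would be rare under an even scatter too.

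The 52 genes next to them, lower and upper, were counted in the same way. Of these, 13 (25.0%) had at least 10 CPM in every embryo of 4 dpf, against 21.0% of all numbered genes outside the left-out stretch, and 25 (48.1%) were at 5 CPM or less in every early embryo, against 54.4%. The mean at 4 dpf was at least 2 times that at 1–2 dpf, with 1 CPM added to both, in 10 neighbours (19.2%, background 10%), and at most 1/2 of it in 3 (5.77%, background 5.55%). No read in any embryo fell on 8 neighbours (15.4%, background 25.4%), and 3 (5.77%, background 2.67%) met the early limit and reached 10 CPM in at least 1 embryo of 4 dpf. The median log2 ratio between the stages was 0 in the neighbours and 0 in all numbered genes. In the chosen genes it was 4.76, which the limits of the choice made large in advance. As neighbours can overlap or share reads with a chosen gene, and the counting of overlapping genes was not stated in the sources used here, these counts are described without a test.

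In 4 neighbours the levels came close to the limits of the choice. jg2041, next to jg2042, had a mean of 2.38 CPM at 1–2 dpf and between 80.2 and 127 CPM at 4 dpf, and missed the choice by an early embryo at 7.52 CPM. jg7128, next to jg7127, went from a mean of 3.80 CPM to between 31.0 and 80.9 CPM and missed it by an early embryo at 11.1 CPM. jg17711, next to jg17712, had at most 0.557 CPM in an early embryo and a mean of 38.2 CPM at 4 dpf, with 5 of 6 embryos at 10 CPM or more. jg21204, next to jg21205, had a mean of 0.313 CPM at 1–2 dpf and of 19.4 CPM at 4 dpf, with 3 of 6 embryos at 10 CPM or more. None of these 4 genes had a read in an adult, and the chosen genes beside them were jg7127, jg17712 and jg21205, also without a read there, and jg2042, with 9.23 CPM in the adult male. A further neighbour, jg21822, next to jg21821, had at most 3.62 CPM in an early embryo and a mean of 9.06 CPM at 4 dpf, with 2 of 6 embryos at 10 CPM or more. It had reads in both adults (5.38 CPM in the female and 9.23 CPM in the male), as did jg21821. Elsewhere the adult reads of neighbours did not match. jg1923 and jg14782 had no read in either adult, beside jg1921 and jg14781, which were found in both. jg12562 had 54.4 CPM in the adult female and 32.0 CPM in the adult male, beside jg12561, which had no read in either. All these pairs were named after their values were seen.

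The other neighbours that rose at least 2 times, with 1 CPM added to both means, were jg18693, jg2165, jg10230, jg11952 and jg13911. Of these, jg18693 went from a mean of 0.0692 CPM to 4.51 CPM, and jg13911 from 20.1 CPM to 50.4 CPM. The remaining neighbours rose by less than 2 times or went the other way. jg913, next to jg914, had a mean of 73.6 CPM at 1–2 dpf and of 1.36 CPM at 4 dpf, while jg914 went from 1.75 to 26 CPM. jg1923, next to jg1921, was at 3952 and 3504 CPM, and jg7782, next to jg7781, at 4212 and 3313 CPM in the means of the 2 stages. These 2 neighbours were thus abundant in both stages, and the genes beside them were not.

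**Figure D5:**
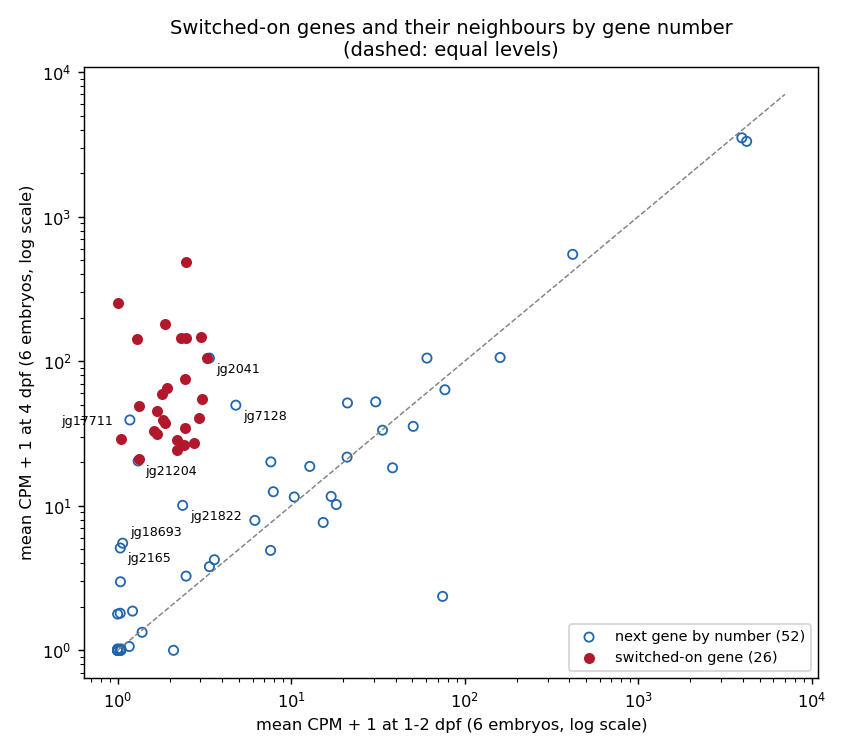
Mean CPM + 1 of 6 embryos at 4 dpf against that of 6 embryos at 1–2 dpf, both on log scales, for the 26 chosen genes (filled) and the 52 genes next to them by number (open); the dashed line marks equal levels. The chosen genes lie high on the left by choice, and most neighbours lie near the dashed line, while jg2041, jg7128, jg17711 and jg21204 lie among or near the chosen genes.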

How the data were processed

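Single whole embryos and dissected adults, whose germline had been taken out, were sequenced with a UMI-based poly(A) RNA kit, in which adult RNA was set to a common input and embryo RNA was too little to measure. Raw counts per gene were deposited by the authors from the Cogent pipeline, which used every read and neither normalized nor collapsed UMIs; its aligner is not given in the sources used here. The number of columns left unassigned was 0. CPM used the column total. The 26 genes and the background lists were chosen with earlier results of these data known. Females and males at 4 dpf were fitted in R 4.3.3 with edgeR 4.0.16 (TMM, filterByExpr, quasi-likelihood F test, Benjamini-Hochberg over all genes, threshold 0.05), limma 3.58.1 and, as an alternative, DESeq2 1.42.0, and standard errors were derived from the F statistic. The fit was also run on simulated data, with changes larger than any estimated for the 26 genes in the main fit. That run does not tell how well differences of the size seen here would be found. Adult intervals are exact binomial intervals (95%, scipy 1.17.1), and matplotlib 3.10.9 in Python 3.11.15 drew the plots. No pair of replicates had counts within sampling noise.

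Named genes are the 10 highest at 4 dpf, the 3 with the smallest p-value in each direction of sex, the extremes of adult level and of spread, those nearest to each limit and runs by number, of which there were none; other members and neighbours were named after their values were seen. None of the 18 genes that the text of the paper names by number is among the 26. Alternatives were TMM scaling, other limits, embryos of 2 dpf only, RLE and upper quartile scaling, every gene with a read, all 12 embryos in one model, other adult limits and distances, and each embryo left out in turn. No sequence was used here.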

Additional observations from a re-analysis of the deposited data

Results flagged for a closer look

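The number of the 26 genes with a read was 0 in female replicate 12 at 1–2 dpf and between 15 and 19 in the other 5 embryos of its stage. Its gap to the nearest other embryo was 0.789 of the whole range, above the limit of 0.625 for 6 values. This library also had reads on the fewest genes of all embryos, 6414. Of 29 groups of 6 values checked in this way, 1 passed the limit. The groups share embryos, and the choice of the genes had already bounded their values, so no chance rate is set beside this count. Its part in the choice of the genes is given by the count without it, 29 genes.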

How the results depend on the processing

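Of 53 alternatives, 47 stayed within a tolerance set for each result and 6 moved past it. For counts the tolerance was a ratio to the main count, and for shares and spreads it was their variation between embryos. Some of the 47 could hardly move, as said below. Limits of 2 and 20 CPM left 2 genes (jg17358 and jg13910), a limit of 10 CPM at both stages gave 62, and embryos of 2 dpf alone as the early stage gave 41. TMM scaling gave 25 genes, 23 of them among the 26, and leaving out each embryo gave between 26 and 35. Leaving out an embryo can only add genes to the choice, so those counts could not fall below 26. At 10 CPM, 15 genes were found when only the adult male was considered, against 8 in both adults, which are among the 15. At 3 reads or fewer, 17 genes were counted when only the adult female was considered, against 9 in both, which are among the 17. The share of counts at 4 dpf was 0.0564% without the 10 highest genes, and from 0.214% to 0.246% with an embryo left out. The median coefficient of variation was then between 40.0% and 50.9%. No gene of the group was called between the sexes under any alternative, and the lowest adjusted p-value was 0.595, in edgeR without female replicate 7. Between 0 and 4 of the 26 had an unadjusted p-value under 0.05 in these fits, against 2.41% to 6.39% of all genes tested. Neighbour counts were 0 throughout. As the closest genes of the group lay 54 genes apart, distances of up to 5 genes could not change them. No paired analysis was possible because females and males at 4 dpf share no replicate number. Levels near 5 CPM rest on few reads, and adult values rest on 1 animal of each sex.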
